A study of Mus musculus with 26 samples.

Results

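The 6 chemokine receptor genes examined were Cxcr4, Ccr7, Ccr9, Ccr4, Ccr8 and Cxcr3, out of 46517 gene symbols measured, and they were chosen by name as receptors that position thymocytes in the cortex and medulla of the thymus. RNA was sequenced from sorted thymocytes of 3 lines of mice that each carry 1 transgenic T cell receptor (TCR): TG6tg H2b/d mice, F5tg Rag1KO mice and OT-1tg Rag2KO mice, whose receptors have low, intermediate and high self-reactivity. TG6 was on a cross of C57/BL6 with B6.C-H2d/bByJ, and F5 and OT-1 were on C57/BL6. Cells were sorted by surface proteins into 3 populations. Double positive cells (CD4+CD8+) that were CXCR4+CCR7- are called early, double positive cells that were CXCR4-CCR7+ are called late, and CXCR4-CCR7+ cells that had lost CD4 (CD4-CD8+) are called mature CD8 single positive (CD8SP). Each of the 9 groups held 3 libraries from 3 mice, except late TG6, which held 2, so that 26 libraries were compared. Each line carried its own transgenic TCR, all 3 shared the class I restricted CD8 fate, the labels name a Rag deletion in F5 and OT-1 only, and the study's methods give an age of 3 to 10 weeks for all but its neonatal mice, with no age for single libraries. By the labels, TG6 also differed from the other lines in its H2 haplotype and in naming no Rag deletion, and these cannot be told apart from its self-reactivity.

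Chemokine receptors are G protein coupled receptors that steer cells along gradients of small secreted ligands. In the thymus, CXCR4 binds CXCL12 and holds immature double positive thymocytes in the cortex, and CCR7 binds CCL19 and CCL21 and draws positively selected cells into the medulla. CCR9 binds CCL25, which thymic epithelium makes, and is carried by most double positive cells. CCR4 binds CCL17 and CCL22, which medullary dendritic cells make, CCR8 binds CCL1 and CCL8, and CXCR3 binds the interferon-induced chemokines CXCL9 and CXCL10 and marks memory and innate-like T cells.

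Because surface CXCR4 and CCR7 set the gates, the change of Cxcr4 and Ccr7 transcript from the early to the late gate is described here with no test. Late and mature cells passed the same CXCR4-CCR7+ gate, and the lines were compared within a gate, so tests were made there for all 6 genes. The levels of these genes in the same samples were known when they were chosen, so the direction of Ccr4 and Ccr8 here is not independent evidence.

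The GENCODE vM21 annotation of GRCm38 (mm10) lists all 6 genes as protein coding. Cxcr4 lies at chr1:128588199-128592293 on the minus strand, Ccr7 at chr11:99144196-99155077 (minus) and Cxcr3 at chrX:101731535-101734269 (minus). The other receptors are on chromosome 9, with Ccr4 at chr9:114490316-114504916 (minus), Ccr8 at chr9:120092114-120094906 (plus) and Ccr9 at chr9:123678439-123784330 (plus). The Ccr9 span also holds Lztfl1 (chr9:123694416-123717697). RefSeq promoter sequences (GRCm38.p6) were given for 5 of the 6 genes. The windows of Ccr4 and Ccr8 are shown because these are the receptors that were higher in OT-1 thymocytes at all 3 stages. Each runs 5′ to 3′ over the 250 bases before the RefSeq start on the gene's own strand, at chr9:114496545-114496794 for Ccr4, inside the GENCODE span of that gene, and at chr9:120091883-120092132 for Ccr8. The GENCODE span of Ccr8 begins near the end of its window, so the last bases lie inside that gene. Capitals mark the NFAT core GGAAA and the AP-1 letters TGANTCA, searched on both strands.
Ccr4: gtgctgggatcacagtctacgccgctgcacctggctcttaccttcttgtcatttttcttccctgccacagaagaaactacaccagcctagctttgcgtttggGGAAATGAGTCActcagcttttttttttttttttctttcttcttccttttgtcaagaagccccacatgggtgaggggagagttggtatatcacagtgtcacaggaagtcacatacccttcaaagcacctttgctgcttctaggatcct
Ccr8: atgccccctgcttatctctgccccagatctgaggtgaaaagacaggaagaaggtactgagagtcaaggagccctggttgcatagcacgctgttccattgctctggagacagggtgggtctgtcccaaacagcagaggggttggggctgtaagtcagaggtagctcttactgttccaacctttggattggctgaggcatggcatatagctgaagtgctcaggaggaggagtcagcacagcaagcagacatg
In the Ccr4 window, GGAAA began 148 bases before the start and TGAGTCA 143 bases before it, side by side without overlap, and the Ccr8 window held neither. Over the 32851 RefSeq promoter windows of this length, 55.6% held GGAAA and 6.75% held TGANTCA on either strand. The Egr letters GCGNGGGCG (4.70% of windows) and the Runx letters TGTGGT (14.0%) were in neither window. The NF-kB letters, GGG and CC with any 5 bases between them, were found in 45.8% of windows and matched at 2 overlapping positions in Ccr8, 136 and 135 bases before the start, and the E-box letters CANNTG, found in 66.2%, matched at 2 positions in Ccr4 and at 0 in Ccr8. Matches of letters are a description and not binding sites.

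All values are the deposited normalized counts, that is, estimated read counts divided by a size factor for each library. The totals per library lay between 16134786 and 18944173, and 1 read was worth 0.945 to 1.05 normalized counts, which gives about 16161675 to 18345799 reads per library. Values of Ccr7, Ccr4, Ccr8 and Cxcr3 were whole reads (within 0.01 of a read) in 26 of 26 libraries. Cxcr4 was whole in 0 libraries and Ccr9 in 1, as estimated counts need not be whole where reads match more than 1 feature. Libraries of 1 group correlated at 0.95 to 0.978 and libraries of different groups at 0.961 at most. The T cell genes Cd3d, Cd3e, Cd3g, Lck, Zap70, Cd8a and Cd8b1 summed to 62376 to 109780 normalized counts in every library. By line the sums were 62376 to 72115 in OT-1, 89101 to 104067 in F5 and 72189 to 109780 in TG6. The part of this difference in the receptor values was not tested. Marker genes of cells outside the T lineage were far lower, with sums of 120.8 to 335.7 for 5 B cell genes, 58.9 to 329.6 for 8 myeloid and dendritic genes and 40.0 to 91.0 for 6 thymic epithelial genes, 3 of which had 3 or less in every library. Lists of genes that T lineage cells also express were higher, at 1537 to 6044 for 4 regulatory and CD4 lineage genes and 1727 to 10795 for 7 innate-like and gamma delta T cell genes. In these bulk samples, fewer cells with a transcript and less transcript per cell cannot be told apart.

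Differences were tested with limma on log2(normalized count + 1), in 1 fit of all 26 libraries, and a gene was called where its p-value, adjusted after Benjamini and Hochberg over the 16372 genes tested, was under 0.05. Fold changes are on that log2 scale, which understates the change of low genes. All 6 receptors passed the filter of 10 normalized counts in 2 libraries, Cxcr3 through mature libraries alone. The plot of levels by library shows the 6 genes over the 3 stages.

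**Figure D1:**
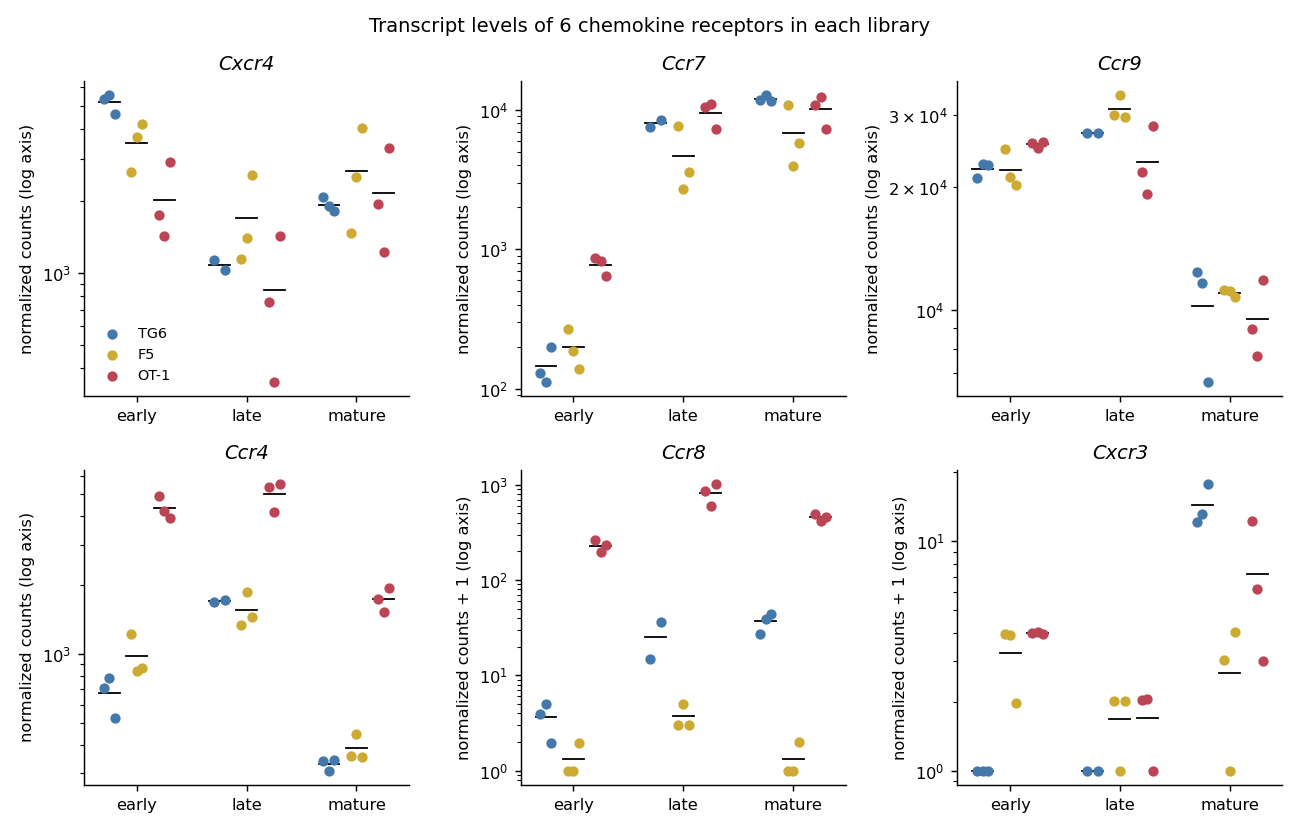
Normalized counts of 6 chemokine receptor genes (log axes, with 1 added for Ccr8 and Cxcr3 so that 0 can be drawn) in the early, late and mature CD8SP populations. Each point is 1 library of TG6 (blue), F5 (yellow) or OT-1 (red) and the bar is the group mean. Ccr4 and Ccr8 of OT-1 lie above both other lines at each stage, and Ccr9 falls from late to mature in every line.

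Cxcr4 transcript had its lowest mean in the late gate in every line, and its highest mean in the early gate in TG6 and F5 and in the mature gate in OT-1. In TG6, the early libraries had 5358, 5527 and 4598 normalized counts, the late libraries 1133 and 1024, and the mature libraries 2067, 1909 and 1809. In F5, they had 2638, 3691 and 4185 early, 1139, 1403 and 2561 late, and 1462, 2528 and 4031 mature. In OT-1, they had 1742, 1425 and 2898 early, 755.6, 350.1 and 1432 late, and 1945, 1219 and 3316 mature. Ranked by mean, early TG6 (5161 ± 495, SD, n = 3) stood first and apart from early F5 (3505 ± 790, SD, n = 3), and the ranges of neighbours from early F5 down to late F5 overlapped. Late TG6 (1079 ± 76.6, SD, n = 2) and late OT-1 (846 ± 546, SD, n = 3) stood last. The labels number the biological replicates of a line, and libraries of a line with the same number were read as 1 mouse, which the labels do not state for each library. The late TG6 libraries also carry another title prefix than the early and mature TG6 libraries, so their reading as the same mice is the least certain. Within a mouse so read, the late level was 0.185 to 0.612 times the early level in the 8 mice with both libraries. This step crosses the CXCR4 gate and was not tested.

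From late to mature, where both populations were sorted as CXCR4-, Cxcr4 was higher in the mature library of 8 of 8 mice, by 1.28 to 3.48 times (median 1.84). The OT-1 ratios, 2.57, 3.48 and 2.32, lay above those of TG6 (1.82 and 1.86) and F5 (1.28, 1.80 and 1.57). Cxcr4 rose in OT-1 by 1.46 ± 0.43 on the log2 scale (standard error, limma adjusted p = 0.017). That call was lost without OT-1 mature replicate 3 (1.09, adjusted p = 0.105) or without OT-1 late replicate 2 (0.93, adjusted p = 0.133), and in a fit of the 2 groups alone (adjusted p = 0.0637). In TG6 the difference was 0.84 ± 0.48 (adjusted p = 0.23) and in F5 0.62 ± 0.43 (adjusted p = 0.352). With the mouse as a replicate block in limma, both were called, at 0.90 in TG6 (adjusted p = 0.0023) and 0.62 in F5 (adjusted p = 0.0077). The late TG6 libraries correlated with the same-numbered TG6 libraries at only 0.0230 to 0.0507 in their deviations from the group means, so the pairing behind the TG6 value is weak in these data. Mature OT-1 cells, sorted without surface CXCR4, had a mean of 2160 ± 1065 (SD, n = 3) beside 2022 ± 775 (SD, n = 3) in the CXCR4+ early OT-1 cells, with overlapping ranges.

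Between lines, early OT-1 thymocytes had less Cxcr4 than those of TG6, with a log2 difference of -1.41 ± 0.43 (limma adjusted p = 0.0176), and the ranges did not overlap. Leaving out OT-1 early replicate 1 (adjusted p = 0.0555) or replicate 2 (0.0858), or TG6 early replicate 1 (0.0504) or replicate 2 (0.0547), ended that call. A list of genes of double positive cells, Rag1, Rag2, Cd4, Cd8a and Cd8b1, moved with this difference. It is no clean measure of the preselection stage, since Cd8a and Cd8b1 stay on in CD8SP cells and Rag1 and Rag2 are the genes deleted in F5 and OT-1, respectively. The list summed to 35159 to 43915 normalized counts in early OT-1, 69793 to 81752 in early F5 and 129195 to 140808 in early TG6, and their part in it was not tested. At the late and mature stages the difference was -0.57 ± 0.48 (adjusted p = 0.46) and 0.05 ± 0.43 (adjusted p = 0.96). Against F5, OT-1 differed by -0.83 ± 0.43 early (adjusted p = 0.222), -1.14 ± 0.43 late (adjusted p = 0.057) and -0.31 ± 0.43 mature (adjusted p = 0.645). The late value was called without F5 late replicate 1 (-1.39, adjusted p = 0.0376) and without OT-1 late replicate 3 (-1.63, adjusted p = 0.00913), and also with total scaling (-1.22, adjusted p = 0.0481) and among genes with a mean of at least 50 (adjusted p = 0.0487). F5 and TG6 differed by -0.58, 0.57 and 0.35 at the 3 stages, none of them called in the fit of all libraries, and the early value was called in a fit of those 2 groups alone (adjusted p = 0.0452).

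In F5 and OT-1, Cxcr4 also varied between mice of a line in the same order at each stage. In both, the mouse numbered 3 had the highest Cxcr4 of its group at all 3 stages, and the lowest was F5 replicate 1 and OT-1 replicate 2 at all 3. The highest library exceeded the lowest by 1.59 to 2.76 times in the F5 groups and by 2.03 to 4.09 times in the OT-1 groups, against at most 1.2 times in TG6, where the highest library was replicate 2 early and replicate 1 late and mature. In F5, replicate 1 was also the library with the highest summed level of the mature stage genes Klf2, S1pr1, Il7r and Runx3 at each stage, with 2412, 10346 and 29182 normalized counts, while replicates 2 and 3 had 1315 and 940.0, 4620.3 and 5302, and 11219.8 and 15787. In OT-1, replicate 3 had the lowest sum at each stage, with 4594, 18644 and 21597, while replicates 1 and 2 had 6244 and 5274, 22777 and 21059.5, and 27961 and 31211. The part of these genes in the Cxcr4 and Ccr7 values was not tested. The plot by mouse shows these lines side by side.

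**Figure D2:**
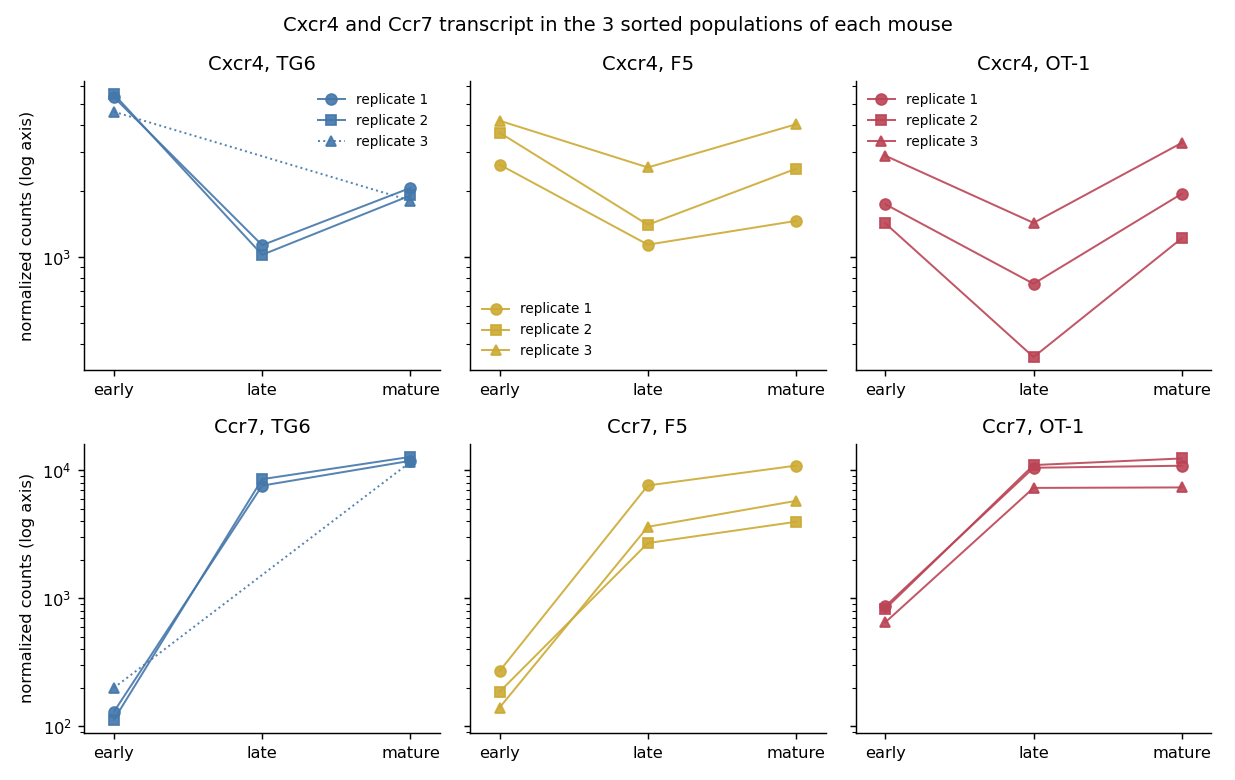
Normalized counts (log axes) of Cxcr4 (top) and Ccr7 (bottom) in the early, late and mature populations, each line joining the libraries with 1 replicate number in TG6, F5 or OT-1 (dotted for TG6 replicate 3, of which no late library was analysed). Every Cxcr4 line with a late library dips there and rises to mature, and the order of the F5 and OT-1 mice for Cxcr4 is the same at all 3 stages.

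Ccr7 transcript ran the other way from Cxcr4 across the first gate. Early libraries had 129.6, 112.3 and 199.4 normalized counts in TG6, 269.9, 185.7 and 139.8 in F5, and 863.3, 826.4 and 647.8 in OT-1. Late libraries had 7585 and 8519 in TG6, 7609, 2698 and 3615 in F5, and 10456, 10976 and 7279 in OT-1. Mature libraries had 11852, 12719 and 11603 in TG6, 10870, 3958 and 5767 in F5, and 10847, 12363 and 7341 in OT-1. Within a mouse, the late level was 58.5 and 75.8 times the early level in TG6, 14.5 to 28.2 times in F5 and 11.2 to 13.3 times in OT-1. This step crosses the CCR7 gate and is given without a test.

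Among early cells, all sorted as CCR7-, Ccr7 was higher in every OT-1 library than in any TG6 or F5 library. OT-1 had 779 ± 115 normalized counts (SD, n = 3), TG6 147 ± 46.1 and F5 198 ± 66.0 (SD, n = 3 each). OT-1 exceeded TG6 by 2.43 ± 0.35 on the log2 scale (limma adjusted p = 1.8e-05) and F5 by 2.01 ± 0.35 (adjusted p = 0.00034), a ratio of means of 5.30 and 3.93. The mature stage genes moved with this result, summing to 4594 to 6244 normalized counts in early OT-1, 861 to 1449 in early TG6 and 940.0 to 2412 in early F5, and their part in it was not tested. Cd4, a coreceptor that cells of the CD8 lineage switch off, was at 8026 ± 76.0 normalized counts in early OT-1, 22113 ± 800 in early TG6 and 13537 ± 1050 in early F5 (SD, n = 3 each), with ranges that did not overlap.

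At the late and mature stages the OT-1 and TG6 ranges of Ccr7 overlapped, with differences of 0.23 ± 0.39 late (adjusted p = 0.748) and -0.28 ± 0.35 mature (adjusted p = 0.657). The OT-1 against TG6 difference changed by -2.71 from the early to the mature stage, a value that crosses the CCR7 gate and is given without a test. F5 had the lowest Ccr7 mean of the 3 lines in the late and mature gates. OT-1 exceeded F5 by 1.16 ± 0.35 late (adjusted p = 0.0174), a call that was lost without F5 late replicate 2 (0.84, adjusted p = 0.114), F5 late replicate 3 (1.06, adjusted p = 0.0714), OT-1 late replicate 1 (1.09, adjusted p = 0.0641) or OT-1 late replicate 2 (1.05, adjusted p = 0.067), and with the 2 groups alone (adjusted p = 0.0516). F5 differed from TG6 by -0.94 ± 0.39 late (adjusted p = 0.216) and -0.94 ± 0.35 mature (adjusted p = 0.123). F5 replicate 1 had the highest Ccr7 of its group at each stage 2.82 times the lowest late library and 2.75 times the lowest mature library. Without F5 late replicate 1 the late difference was -1.36 (adjusted p = 0.0331), and without F5 mature replicate 1 the mature difference was -1.33 (adjusted p = 0.0225) and that of OT-1 against F5 was 1.06 (adjusted p = 0.0382) in place of 0.66 ± 0.35 (adjusted p = 0.173).

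Between the late and mature gates, both CCR7+, Ccr7 was 1.01 to 1.60 times higher in the mature library of 8 of 8 mice. The ratios were 1.56 and 1.49 in TG6, 1.43, 1.47 and 1.60 in F5, and 1.04, 1.13 and 1.01 in OT-1. No line passed the test, with 0.58 ± 0.39 in TG6 (limma adjusted p = 0.307), 0.58 ± 0.35 in F5 (adjusted p = 0.268) and 0.08 ± 0.35 in OT-1 (adjusted p = 0.894). With the mouse as a block the F5 value was called (adjusted p = 0.0208), as it was without F5 late replicate 1 (1.01, adjusted p = 0.0372), and a fit of the 2 TG6 groups alone called the TG6 value (adjusted p = 0.0439).

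Ccr9 lay between 19281 and 33572 normalized counts in every early and late library and fell in mature cells of all 3 lines. Early libraries held 21014, 22739 and 22616 normalized counts in TG6, 24785, 21128 and 20280.2 in F5, and 25644, 24905 and 25808 in OT-1. Late libraries held 27147 and 27105 in TG6, 30076, 33572 and 29722 in F5, and 21739, 19281 and 28159 in OT-1. Mature libraries held 12348, 11636 and 6657 in TG6, 11196, 11099 and 10768 in F5, and 8952, 7718 and 11855 in OT-1. No mature library reached the lowest early or late library of any line, and the mature ranges of the 3 lines overlapped. Within a mouse the mature level was 0.331 to 0.455 times the late level, lower in 8 of 8 mice. Ccr9 fell by 1.46 on the log2 scale in TG6 (SE 0.20, limma adjusted p = 1.6e-05), by 1.50 in F5 (SE 0.18, adjusted p = 3.5e-06) and by 1.28 in OT-1 (SE 0.18, adjusted p = 2.5e-05).

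From early to late, Ccr9 rose in F5 by 0.50 ± 0.18 (adjusted p = 0.039). This call did not survive leaving out any of F5 late replicate 1, 2 or 3 or F5 early replicate 2 or 3 (adjusted p = 0.0625, 0.113, 0.0658, 0.107 and 0.128), nor scaling each library to the same total (adjusted p = 0.0675). In TG6 the difference was 0.30 ± 0.20 (adjusted p = 0.317), called when the 2 TG6 groups were fitted alone (adjusted p = 0.0055), and in OT-1 it was -0.16 ± 0.18 (adjusted p = 0.551). No difference between lines in Ccr9 was called at any stage. The values for OT-1 against TG6 were 0.20 ± 0.18 (95% confidence interval -0.16 to 0.57), -0.25 ± 0.20 (-0.66 to 0.16) and -0.07 ± 0.18 (-0.44 to 0.29) at the early, late and mature stages. The early value was called with the 2 groups alone (adjusted p = 0.0251) and the late one after quantile normalization (-0.61, adjusted p = 0.0405). Late OT-1 differed from late F5 by -0.45 ± 0.18 (adjusted p = 0.0682), which was called without OT-1 late replicate 3 (-0.60, adjusted p = 0.0258), with total scaling (-0.53, adjusted p = 0.0435) and after quantile normalization (-0.76, adjusted p = 0.0036).

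At every stage Ccr4 was highest in OT-1, and it fell from late to mature in all 3 lines. TG6 libraries had 709.6, 786.2 and 525.5 normalized counts early, 1691 and 1718 late, and 339.3, 308.9 and 345.2 mature. F5 libraries had 1229, 846.2 and 868.8 early, 1342, 1877 and 1453 late, and 358.9, 448.9 and 355.1 mature. OT-1 libraries had 4912, 4228 and 3930.1 early, 5364, 4202 and 5547 late, and 1749, 1523 and 1945 mature. At each stage, every OT-1 library was above every TG6 and F5 library of that stage. OT-1 exceeded TG6 by 2.71 ± 0.17 early (limma adjusted p = 1.0e-10), 1.55 ± 0.19 late (adjusted p = 3.9e-06) and 2.38 ± 0.17 mature (adjusted p = 1.4e-09), with ratios of means of 6.47, 2.95 and 5.25. Against F5 the differences were 2.16 ± 0.17 (adjusted p = 9.7e-09), 1.70 ± 0.17 (adjusted p = 1.5e-07) and 2.16 ± 0.17 (adjusted p = 7.2e-09). Each of these calls was kept under every alternative that was run.

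F5 and TG6 differed less in Ccr4, by 0.54 ± 0.17 early (adjusted p = 0.0574), -0.15 ± 0.19 late (adjusted p = 0.796) and 0.22 ± 0.17 mature (adjusted p = 0.558), and the early value was called without TG6 early replicate 2 (0.66, adjusted p = 0.0412). From early to late, Ccr4 rose in TG6 by 1.36 ± 0.19 (adjusted p = 8.9e-06) and in F5 by 0.67 ± 0.17 (adjusted p = 0.0043). In OT-1, where the early level was already high, the difference was 0.20 ± 0.17 (adjusted p = 0.405). From late to mature it fell in every line, by 2.36 in TG6 (SE 0.19, adjusted p = 3.0e-08), 2.00 in F5 (SE 0.17, adjusted p = 4.8e-08) and 1.53 in OT-1 (SE 0.17, adjusted p = 3.5e-06), and in 8 of 8 mice, to 0.180 to 0.363 times the late level.

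Ccr8, a receptor of skin-homing and regulatory T cells, had the largest fitted difference of the 6 receptors between OT-1 and each other line at every stage. OT-1 libraries had 262.8, 193.8 and 231.7 normalized counts early, 865.3, 593.5 and 1017 late, and 493.7, 413.4 and 455.5 mature. TG6 libraries had 2.97, 3.98 and 0.968 early, 13.7 and 35.4 late, and 26.3, 37.6 and 43.4 mature. F5 had 1 read in its 3 early libraries together, 8 in its late libraries and 1 in its mature libraries. OT-1 exceeded TG6 by 6.08 ± 0.41 early (limma adjusted p = 5.0e-10), 5.12 ± 0.46 late (adjusted p = 7.9e-08) and 3.66 ± 0.41 mature (adjusted p = 2.5e-06). Against F5, OT-1 had 691 reads to 1 early, a ratio of 691 (95% counting interval 124 to 27332), and 1327 to 1 mature, a ratio of 1327 (238 to 52453), where the intervals cover counting error only. Late OT-1 and late F5 had 2406 and 8 reads (limma adjusted p = 1.3e-11).

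TG6 and F5 also differed in Ccr8, and F5, the line of intermediate self-reactivity, had the lowest level of the 3 lines. Mature TG6 had 107 reads and mature F5 had 1, a ratio of 107 (95% counting interval 18.8 to 4265, limma adjusted p = 2.0e-08). At the late stage F5 differed from TG6 by -2.69 ± 0.46 (adjusted p = 0.00055), which was lost without TG6 late replicate 2 (-2.03, adjusted p = 0.0577), with a pseudocount of 0.1 (adjusted p = 0.0662) and with the 2 groups alone (adjusted p = 0.106). The early comparison was also called (adjusted p = 0.039), on 8 reads against 1, and no fold is given. In OT-1, Ccr8 rose from early to late by 1.82 ± 0.41 (adjusted p = 0.0022, and 0.119 with a pseudocount of 0.1) and in 3 of 3 mice, by 3.06 to 4.39 times. The mature level was 0.448 to 0.697 times the late level in the same mice, -0.83 ± 0.41 (adjusted p = 0.151), called with a pseudocount of 5 (adjusted p = 0.0291) or in the 2 groups alone (adjusted p = 0.0129). In TG6 it rose from early to late by 2.77 ± 0.46 (adjusted p = 8.5e-05) and the late to mature difference was 0.64 ± 0.46 (adjusted p = 0.35). F5 was called from early to late (limma adjusted p = 0.0081) and from late to mature (adjusted p = 0.011) on 1, 8 and 1 reads, and no fold is given.

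CCR4 and CCR8 are also carried by regulatory T cells, so the genes of that list were set beside them. The summed level of Foxp3, Il2ra, Ikzf2 and Zbtb7b was 5016 to 6044 normalized counts in early OT-1, 3244 to 4351 in early TG6 and 5283 to 5646 in early F5, and at the late stage 4984 to 5432, 2194 to 2408 and 1537 to 2248. Mature ranges were 3734 to 4142 in OT-1, 3150 to 4141 in TG6 and 3604 to 4602 in F5, and none of the 4 genes was at 0 in all libraries of a group. Foxp3, the factor that defines regulatory T cells, was at 1.70 ± 0.58, 9.53 ± 1.43 and 3.45 ± 0.60 in early, late and mature OT-1 (SD, n = 3 each) beside 8.50 ± 2.08 (SD, n = 3), 44.4 ± 3.62 (SD, n = 2) and 26.7 ± 8.07 (SD, n = 3) in TG6. Ikzf2, which encodes the transcription factor Helios, made up most of the sum, with 4868 ± 479 in early and 4839 ± 406 in late OT-1 (SD, n = 3 each) and 2943 ± 416 (SD, n = 3) and 1997 ± 161 (SD, n = 2) in TG6. Against TG6, Ikzf2 was called higher in OT-1 early (0.73, limma adjusted p = 0.00095) and late (1.28, adjusted p = 1.2e-05), as Ccr4 and Ccr8 were. The sums of the list overlapped between early OT-1 and early F5, and among all 3 lines at the mature stage. Ccr4 and Ccr8 were called higher in OT-1 in those comparisons too. Il2ra, the interleukin 2 receptor alpha chain, was 386 ± 80.2 and 101 ± 39.9 in early and late OT-1 (SD, n = 3 each) and 1011 ± 254 (SD, n = 3) and 169 ± 47.5 (SD, n = 2) in TG6. Zbtb7b, which encodes the CD4 lineage factor ThPOK, was 169 ± 90.9 in early and 244 ± 192 in late OT-1 (SD, n = 3 each) and 11.6 ± 8.23 (SD, n = 3) and 90.6 ± 54.1 (SD, n = 2) in TG6. The innate-like and gamma delta list summed to 6686 to 7606 normalized counts in early OT-1 against 1727 to 2067 in early TG6, and to 10515 to 10795 against 3070 to 4296 late. In F5, where Ccr8 was lowest, the same list summed to 8834 to 10027 early and 6546 to 8376 late. The part of other cells in the Ccr4 and Ccr8 values was not tested.

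Cxcr3, the receptor of the interferon-induced chemokines, was at or near 0 except in mature TG6 and OT-1 cells. No read was assigned to it in the 3 early and 2 late TG6 libraries, and mature TG6 libraries had 11.1, 12.2 and 16.8 normalized counts, with a mean at least 4.45 times a floor of 3 per library. OT-1 had 9 reads early, 2 late and 18 mature over 3 libraries each, the mature libraries at 11.3, 5.22 and 2.02. F5 had 7, 2 and 5 reads at the same stages, with at most 3 in a library. Every mature TG6 library was above every F5 library, and the range of the mature OT-1 libraries overlapped both.

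Cxcr3 passed the filter only through mature libraries of TG6 and OT-1, so limma calls of Cxcr3 between those groups and others follow in part from the filter, and its p-values are not given. Of the 18 reads of mature OT-1, 11 were in replicate 1, and without that library, or without late OT-1 replicate 3, the change from late to mature OT-1 was no longer called. At the early stage each OT-1 library had 3 reads and no TG6 library had any, and no fold is given. Eomes, a factor of memory-like CD8 cells, was 76.8 ± 21.3, 36.7 ± 10.7 and 4.72 ± 2.13 normalized counts in mature OT-1, TG6 and F5 (SD, n = 3 each). The innate-like and gamma delta T cell list of 7 genes summed to 8887 to 9928, 4811 to 5336 and 8975 to 10342 in the same groups, with Ncr1 at 0 in every library and Zbtb16 at 2.95 at most, and its part in the Cxcr3 values was not tested.

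**Figure D3:**
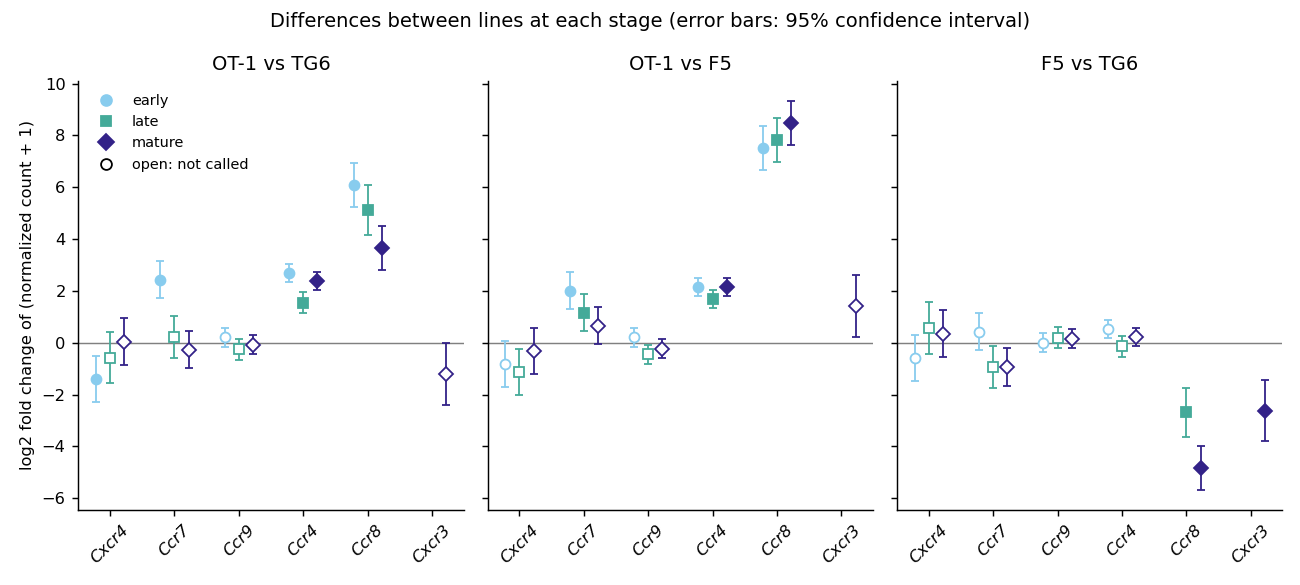
Log2 fold changes of normalized count + 1 between lines for each receptor, with limma 95% confidence intervals, at the early (circles), late (squares) and mature (diamonds) stages. Filled symbols were called and open ones were not, and comparisons with both means at 3 or less are not drawn. Ccr8 and Ccr4 lie above 0 at all 3 stages for OT-1 against both other lines, and Ccr7 lies above 0 in early OT-1.

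Counted over the 6 receptors, 5 were called between OT-1 and TG6 at early positive selection (Ccr7, Ccr4, Ccr8 and Cxcr3 higher, Cxcr4 lower), where 27.8% of all genes tested were called. Nothing is read from Cxcr3 in these counts, since the filter kept it only through mature libraries. At the late stage 2 were called (Ccr4 and Ccr8, background 15.5%) and at the mature stage the same 2 (background 9.74%). The mature background rested on single libraries. Of all genes, 1595 were called with every library, 4454 without TG6 mature replicate 3, 745 and 734 without TG6 mature replicates 1 and 2, 977 and 902 without OT-1 mature replicates 1 and 2, and 319 in a fit of these 2 groups alone. At the late stage 2545 were called with every library, and 1270 and 1099 without TG6 late replicates 1 and 2. Ccr4 and Ccr8 were the 2 receptors called at the mature stage in each of these fits. TG6 mature replicate 3 differed from replicates 1 and 2 in Ccr9 (6657 normalized counts against 12348 and 11636) and in the summed T cell genes (72189 against 97997 and 93256). Between OT-1 and F5, 3 receptors were called early (Ccr7, Ccr4 and Ccr8, 12.7% of all genes), the same 3 late (24.0%) and Ccr4 and Ccr8 in mature cells (23.3%), all higher in OT-1. Between F5 and TG6, Ccr8 was called early (6.46% of all genes) and late (4.97%), and Ccr8 and Cxcr3 at the mature stage (6.64%), all lower in F5. These line comparisons share groups and are not independent of each other. From early to late, leaving out Cxcr4 and Ccr7, 2 of 4 receptors were called in TG6 (Ccr4 and Ccr8, 25.4% of all genes). In F5 3 were called (Ccr9, Ccr4 and Ccr8, 26.7%) and in OT-1 1 (Ccr8, 26.7%), all of them upward. From late to mature, 3 of 6 were called in TG6 (Ccr9, Ccr4 and Cxcr3, 22.3%) and 3 in F5 (Ccr9, Ccr4 and Ccr8, 20.5%). In OT-1 4 were called (Cxcr4, Ccr9, Ccr4 and Cxcr3, 24.4%). Nothing is read from Cxcr3 here, nor from Ccr8 in F5, which had 1 read early, 8 late and 1 mature. Ccr9 and Ccr4 fell in all 3 lines, as the plot of late to mature changes shows. In limma, a change of the line difference from early to mature was called for 3 receptors between OT-1 and TG6 (Ccr7, Ccr8 and Cxcr3, 4.20% of all genes). It was called for 0 between OT-1 and F5 (1.64%) and for 2 between F5 and TG6 (Ccr8 and Cxcr3, 4.40%). Ccr7 crosses the gate and Cxcr3 was kept only through mature libraries, so these counts are not set against the shares as results. Ccr8, the remaining receptor, was no longer called in either comparison with a pseudocount of 0.1. With the mouse as a block the counts became 4, 1 and 4. The receptors gained were Cxcr4 and Ccr7, whose values cross the gates and are not read as results.

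**Figure D4:**
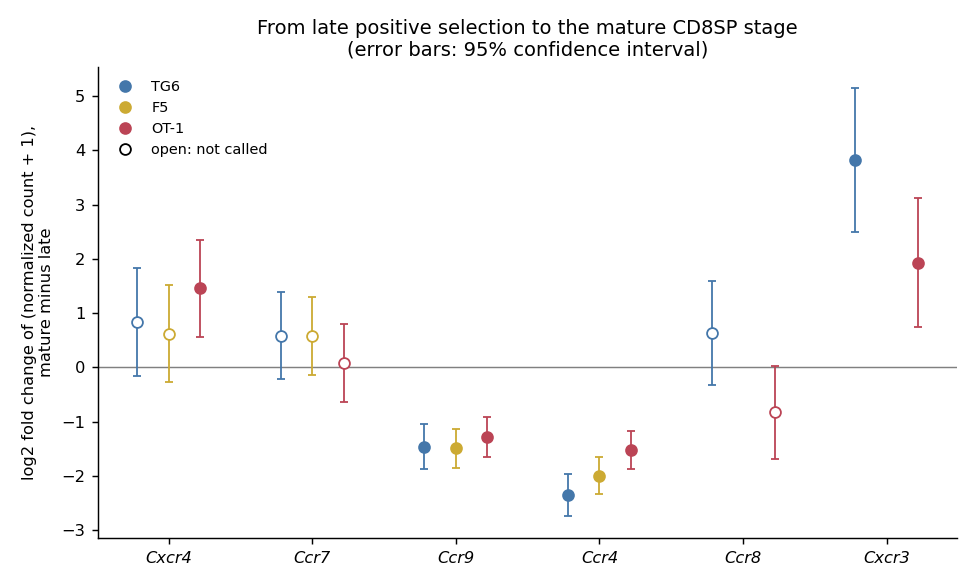
Log2 fold change of normalized count + 1 from late positive selection to mature CD8SP for each receptor in TG6 (blue), F5 (yellow) and OT-1 (red), with limma 95% confidence intervals; filled symbols were called. Ccr8 and Cxcr3 in F5, with both means at 3 or less, are not drawn, and the Cxcr3 value of TG6, against late libraries at 0, depends on the 1 added. Ccr9 and Ccr4 lie below 0 in all 3 lines, and Cxcr4 lies above 0 in all 3 with only OT-1 called.

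As a description over the 26 libraries, which differ in stage and line together, the 6 genes were paired by Pearson correlation of log2 values. The lowest was Cxcr4 with Ccr7 (-0.68), whose products set the gates, and the highest was Ccr4 with Ccr8 (0.68). Ccr9 and Cxcr3 correlated at -0.66, Ccr9 and Ccr4 at 0.54, and Cxcr4 and Ccr8 at -0.52. Among all genes tested, the pattern most like that of Cxcr4 was that of Traf2 (r = 0.91), followed by Klhl22 and Cdc42ep3. Ccr7 was most like Ctsw (0.98), Card6 and Arhgap9, and among the genes most like Ccr9 were Clcn4-2 (0.94) and Rbms2. Ccr4 was most like Ptgir (0.92), Gm14718 and Cnot6l. Ccr8 was most like the TCR alpha segments Trav14d-1 and Trav14n-1 (0.96 each), near copies between which reads can be split, and Sox13 (0.95). Each line carried its own transgenic TCR, and whether these segments belong to any of them was not examined. Cxcr3, with few reads, was most like Osgep (0.81), Gm8817 and Sms.

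Of 13 other chemokine receptor genes in the table, 7 were tested, and the highest group mean was 217.0 normalized counts (Cxcr6 in mature OT-1). Between OT-1 and TG6, 1 of the 7 was called early, 1 late and 2 at the mature stage, where 27.8%, 15.5% and 9.74% of all genes were, the last share resting on single libraries as given above. Cx3cr1 was called higher early (3.38, limma adjusted p = 0.00012) and late (3.24, adjusted p = 0.0010), and in mature cells Ccr2 was called higher (2.11, adjusted p = 0.00041) and Xcr1 lower (-1.34, adjusted p = 0.0372). After quantile normalization no gene of the 7 was called lower in mature cells. These genes and the chemokine ligands were named after their values were seen. Cx3cr1, the fractalkine receptor, is a neighbour of Ccr8 (chr9:119901616-120069879) and had 38.1 ± 7.34, 60.1 ± 16.3 and 54.5 ± 11.9 normalized counts in early, late and mature OT-1 and 1.92 ± 1.92, 6.01 ± 1.72 and 1.66 ± 1.52 in F5 (SD, n = 3 each). TG6 had 3.57 ± 3.71 early (SD, n = 3), 5.33 ± 0.67 late (SD, n = 2) and 36.9 ± 2.73 mature (SD, n = 3), the same order of lines at the mature stage as Ccr8. Of 5 atypical receptors 1 was tested and not called. Of 15 chemokine ligand genes 7 were tested, with a highest group mean of 105.8 (Ccl25 in late TG6). Against TG6, 3 of the 7 were called higher in early OT-1 (Ccl4, Cxcl10 and Ccl5), 2 lower in late OT-1 (Ccl22 and Xcl1) and 1 lower in mature OT-1 (Xcl1), beside the same 27.8%, 15.5% and 9.74% of all genes. Xcl1 passed the filter only through mature TG6, with 34.5 to 62.0 normalized counts, so that its call at the mature stage follows in part from the filter, and it was at most 4.91 in late TG6 and 0 in every late OT-1 library.

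Downstream of the receptors, 8 of 20 signal transduction genes were called higher and 2 lower in early OT-1 than early TG6 (median log2 difference 0.22, against -0.00 over all genes, of which 27.8% were called). Gng2, a G protein gamma subunit, differed by 1.30 ± 0.21 (limma adjusted p = 1.0e-04), Arrb2, which encodes an arrestin that uncouples receptors, by 0.63 ± 0.16 (adjusted p = 0.0043), and Adrbk1, the receptor kinase GRK2, by -0.42 ± 0.10 (adjusted p = 0.0047). The counts of called genes depended on the scaling. After scaling all libraries to 1 common total, which moved the median of all genes in this comparison to -0.11, 3 were called higher and 3 lower, and after quantile normalization 4 and 3. At the late and mature stages, where 15.5% and 9.74% of all genes were called, 3 and 4 were called higher and 1 and 0 lower. With total scaling 1 and 2 were called higher and 1 and 2 lower, and after quantile normalization 3 and 2 higher and 2 and 1 lower. The mature share of all genes moved with single TG6 and OT-1 libraries, as given above for the receptors, and these list counts were not run without them.

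Rgs proteins shorten G protein signals. Of 8 Rgs genes tested, 5 were called higher and 1 lower in early OT-1 than early TG6, 3 and 1 late, and 1 and 1 in mature cells, where 27.8%, 15.5% and 9.74% of all genes were called. The early counts were 5 and 1 under total scaling and quantile normalization, while the late counts were 2 and 1 under total scaling and the mature counts were 0 and 1 under both. Rgs1 differed by 2.85 ± 0.44 (limma adjusted p = 5.0e-05), Rgs3 by 1.62 ± 0.14 (adjusted p = 2.0e-08) and Rgs14 by -0.89 ± 0.16 (adjusted p = 0.00022) at the early stage. Of 7 other receptors that guide thymocytes, 3, 4 and 2 were called higher and 1, 1 and 0 lower at the 3 stages, beside the same shares of all genes (27.8%, 15.5% and 9.74%), with the same counts under both scalings. S1pr1, the sphingosine-1-phosphate receptor that mature thymocytes need to leave the thymus, differed by 4.38 ± 0.43 early (adjusted p = 1.3e-07), 3.06 ± 0.48 late (adjusted p = 0.00011) and 0.67 ± 0.43 mature (adjusted p = 0.35). Plxnd1, a semaphorin receptor of double positive cells, was lower in OT-1 early (-1.55 ± 0.21, adjusted p = 8.2e-06) and late (-1.10 ± 0.23, adjusted p = 0.0022) and higher in mature cells (0.96 ± 0.21, adjusted p = 0.0046).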

How the data were processed

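RNA-seq was performed on thymocytes sorted from OT-1, F5 and TG6 mice, in 26 libraries. Per the submitters' processing notes and methods, the authors used Trimmomatic 0.32 for trimming, Bowtie2 2.3.2 for alignment to mm10 and RSEM 1.2.31 for quantification. The authors then divided the estimated counts of each library by a DESeq2 size factor (median of ratios) and deposited the resulting signal, here called normalized counts. The annotation used and the strand setting are not given in the sources used here. Only 42.4 to 44.3% of values above 0 came out as whole reads, so no count test was run.

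The deposited values were taken as log2(value + 1) for the 16372 symbols that reached 10 in 2 or more libraries. The limma package 3.58.1 (R 4.3.3) fitted 9 group means with a trended prior variance and 17 residual degrees of freedom, with Benjamini-Hochberg adjustment inside each of 18 comparisons. The fit was also run on simulated data with independent noise, no mouse pairing and changes added to the early OT-1 group alone. That setting is simpler than the data, so it does not show how the fit behaves on them. Counting intervals are exact 95% binomial intervals. The number of libraries limits the precision, and intervals from reads cover counting error only.

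The 6 receptors, the wider gene lists and the markers were chosen with earlier results of these data known. Named genes are the 6 receptors, the genes of the wider lists called between OT-1 and TG6 with the largest differences and a mean of at least 100, and the 3 genes most alike to each receptor. Chemokine receptors and ligands outside this rule, with means under 100, were named after their values were seen. A gene named by this rule and some list genes are not reported here, and the lists were used without the latter. Ccr7 had no entry among the promoter sequences used.

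The series design text describes 3 mice per line, each sorted into 3 populations. Libraries of a line with the same replicate number were read as 1 mouse, which the labels do not state for each library. The late TG6 libraries carry another title prefix than the early and mature ones, and were joined to them by number alone. On that reading the mouse was used as a block for stage comparisons. Deviations from group means, compared between libraries sharing a number, had correlations of 0.106 to 0.340 in F5 (9 pairs), 0.0189 to 0.178 in OT-1 (9 pairs) and 0.0230 to 0.274 in TG6 (7 pairs), with a median of -0.00254 between lines. The alternatives were a pseudocount of 0.1 or 5, testing without a filter or above a mean of 50, scaling to a common total or to common quantiles, a prior variance without trend, fits of only the groups compared, a replicate block, and leaving out each library.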

Additional observations from a re-analysis of the deposited data

Results flagged for a closer look

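The difference between lines changed between early positive selection and the mature stage for 5 receptor results in limma, given as the mature minus the early log2 difference. For OT-1 against TG6 these were Ccr7 (-2.71), Ccr8 (-2.42) and Cxcr3 (-3.20). For F5 against TG6 they were Ccr8 (-3.40) and Cxcr3 (-4.26). The Ccr7 value crosses the CCR7 gate, and Cxcr3 passed the filter only through mature libraries, with 0 reads in early TG6, so these 3 values are descriptions. The Ccr8 results rest on 8 reads in early TG6 and 1 in early and mature F5, and with a pseudocount of 0.1 they were no longer called (adjusted p = 0.243 for OT-1 and 0.072 for F5 against TG6). Ccr8 was also not called in OT-1 against TG6 without TG6 early replicate 3 (adjusted p = 0.0552), nor in F5 against TG6 with only the groups compared (adjusted p = 0.0655).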

How the results depend on the processing

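Counts of receptors called were within 1.5 times the reported count in 144 of 162 comparisons with another setting and in 116 of 122 with 1 library left out, and single receptors kept their direction and their side of the threshold in 749 of 790 and 570 of 623. The counts that moved were mostly of F5 against TG6, where Ccr8 and Cxcr3 had few reads. With a pseudocount of 0.1, 2 receptors were called early, 0 late and 1 mature between F5 and TG6, 1 in the early against mature interaction of these lines, and 0 of 4 from early to late in OT-1. F5 against TG6 early gave 0 with a pseudocount of 5, no filter or quantile normalization. A mean of at least 50, which leaves out Cxcr3, gave 1 for F5 against TG6 mature and 1 for the interaction. With only the groups compared, these lines gave 0 late, 1 mature and 1 for the interaction, and TG6 late to mature gave 5. Total scaling gave 5 for OT-1 against F5 late.

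The replicate block gave 5 for F5 late to mature, 4 for the F5 against TG6 interaction and 1 for the OT-1 against F5 interaction. The interactions it gained were of Cxcr4 and Ccr7, which cross the sorting gates, and are not read as results. Beyond these and the Cxcr4 and Ccr7 values in the report it changed no other receptor call. Between lines the number does not mark a shared mouse, and 1 call gained there (Cxcr4 of OT-1 against F5 late, limma adjusted p = 0.0166) is not read as a result. With 1 library left out, counts ranged from 2 to 5 for OT-1 against F5 late, 0 to 2 for F5 against TG6 late and 0 to 1 for F5 against TG6 early.

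Sign changed in 26 values of receptors that were not called (adjusted p of 0.695 or more, at most 0.32 in size). With another setting these were Ccr4 in the OT-1 against F5 interaction (0.00099 with a pseudocount of 0.1), Cxcr4 in OT-1 against TG6 mature (-0.043 with total scaling and -0.013 after quantile normalization), and, after quantile normalization, Ccr9 in OT-1 against TG6 early (-0.021) and Ccr7 in OT-1 late to mature (-0.0093). The rest had 1 library left out. Cxcr4 ranged in mature cells from -0.68 to 0.048 for OT-1 against F5, -0.0018 to 0.73 for F5 against TG6 and -0.32 to 0.40 for OT-1 against TG6. Ccr9 ranged from -0.095 to 0.0497 for F5 against TG6 early, -0.12 to 0.32 mature and -0.11 to 0.33 in their interaction, and from -0.36 to 0.0883 for OT-1 against TG6 mature. The Ccr4 interaction of OT-1 against F5 ranged from -0.17 to 0.11, Ccr7 of OT-1 late to mature from -0.11 to 0.30 and Ccr8 of TG6 late to mature from -0.0149 to 1.29. The cause was not tested.

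Counts over all genes moved by more than 1.5 times in some fits. Beside the OT-1 against TG6 counts in the report, fitting the compared groups alone gave 1963 calls in place of 1058 for F5 against TG6 early, 371 in place of 814 late and 381 in place of 1087 mature, 925 in place of 3655 for TG6 late to mature, 1682 in place of 3361 for F5 late to mature and 282 in place of 721 for the F5 against TG6 interaction. The replicate block called 1272, 885 and 1531 in place of 687, 269 and 721 for the interactions of OT-1 against TG6, OT-1 against F5 and F5 against TG6. Without TG6 late replicates 1 and 2, counts were 429 and 374 for F5 against TG6 late, 2760 and 2627 in place of 4158 for TG6 early to late, and 2119 and 1878 for TG6 late to mature. Without F5 mature replicate 3, OT-1 against F5 mature gave 2281 in place of 3821, and without TG6 mature replicate 3 the OT-1 against TG6 interaction gave 1154. OT-1 against F5 early gave 1323, 1321 and 1283 in place of 2077 without F5 early replicates 2 and 3 and OT-1 early replicate 2. F5 against TG6 early gave 694, 694, 691 and 640 without F5 early replicates 1 and 2 and TG6 early replicates 2 and 3, and the OT-1 against F5 interaction ranged from 155 to 345 with 1 early or mature library left out.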
